A study of Mus musculus with 8 samples.

Results

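The Krüppel-like factor (KLF) loci are the chromatin around 10 mouse genes, Klf2, Klf3, Klf4, Klf5, Klf6, Klf7, Klf9, Klf10, Klf13 and Klf16. An ATAC-seq peak, a stretch of open DNA called in 1 library, belonged to a locus when its summit lay in the gene body or within 50 kb of it. This took 231 of the 144372 peaks, which merged into 44 of the 32730 accessible regions of the series. The rule places peaks by gene name and position, and the 10 genes were listed with earlier results of these data known.

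The cells were GFP+ leukaemia cells sorted from the bone marrow of leukaemic mice. They carry the MLL-AF9 fusion, which drives acute myeloid leukaemia, and TetO-Klf4, a Klf4 construct under a tetracycline operator that doxycycline switches on. The strain is labelled C57BL/7, and the 4 groups, labelled 0h, 6h, 12h and 24h, hold 2 libraries each. All groups share the fusion and the construct, and no group lacks the construct. Whether doxycycline was given to the 0h cells, what drives the transactivator, the age of the mice and whether the 2 libraries of a time came from separate mice are not in the labels.

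KLF proteins bind DNA with zinc fingers at the end of the protein, and recognise GC-rich sequences, the CACCC box and the related GC box among them. Their other parts differ: Klf2, Klf4, Klf5, Klf6 and Klf7 are mainly activators, Klf3 is a repressor that recruits CtBP, and Klf9, Klf10, Klf13 and Klf16 recruit the Sin3A corepressor. Because family members share their binding sequence, they compete for sites and can control one another's genes. Klf4 drives monocyte differentiation in the myeloid lineage and is one of the factors used to reprogram somatic cells.

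Libraries differed in depth. Lists held 14826 to 21903 peaks, and the background was 1.5 tags per kb for the second library of 0h, against 2.23 to 2.67 for the others. Of 10 marker genes of MLL-AF9 myeloid leukaemia, 7 to 10 had a peak no farther than 10 kb in each library. The other lists had 1 to 4 of 6 B-cell genes with a peak, 2 to 4 of 6 T and NK genes, 2 of 6 erythroid genes (Epor and Klf1, itself of the KLF family), 3 to 5 of 6 megakaryocyte genes and 0 to 5 of 8 endothelial and stromal genes. Among the markers with 0 peaks in every library were Ms4a1, Cd8a, Ncr1, Gata1, Hbb-bt, Alas2, Pf4, Kdr, Tek and Emcn.

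The stretch of 250 bases before the start site could be matched for 7 of the 10 genes (RefSeq, GRCm38.p6), all but Klf5, Klf10 and Klf16. The 3 shown belong to Klf4, whose start had a peak in 7 of 8 libraries, and to Klf2 and Klf7, whose loci held the 2 regions that changed against 0h. Capitals mark CACCC and the GC box GGGCGG on either strand, so that GGGTG and CCGCCC are capitals too.
Klf4 chr4:55532476-55532725 minus strand: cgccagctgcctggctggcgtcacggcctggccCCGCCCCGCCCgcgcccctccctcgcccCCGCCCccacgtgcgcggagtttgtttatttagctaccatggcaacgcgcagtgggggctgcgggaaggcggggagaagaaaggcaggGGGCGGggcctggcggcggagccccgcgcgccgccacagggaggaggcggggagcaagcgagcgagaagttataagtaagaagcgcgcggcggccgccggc
Klf2 chr8:72318812-72319061 plus strand: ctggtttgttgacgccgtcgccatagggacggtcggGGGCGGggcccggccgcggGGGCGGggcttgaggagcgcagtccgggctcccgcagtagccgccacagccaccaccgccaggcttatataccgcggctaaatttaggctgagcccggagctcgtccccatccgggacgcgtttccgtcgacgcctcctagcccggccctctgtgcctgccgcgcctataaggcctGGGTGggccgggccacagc
Klf7 chr1:64121390-64121639 minus strand: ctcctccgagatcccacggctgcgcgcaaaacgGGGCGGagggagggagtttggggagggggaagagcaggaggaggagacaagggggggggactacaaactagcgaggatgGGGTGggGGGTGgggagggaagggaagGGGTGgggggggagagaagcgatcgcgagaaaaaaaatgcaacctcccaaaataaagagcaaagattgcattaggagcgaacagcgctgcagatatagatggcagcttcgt

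The Klf4 stretch held 4 GC boxes and 0 CACCC, the Klf2 stretch 2 GC boxes and 1 CACCC, and the Klf7 stretch 1 GC box and 3 CACCC. Over the 7 promoters, 5 held CACCC and 6 held GGGCGG, and in 2 of them the matches shared letters. Among 21263 promoters of 17492 protein-coding genes, 54.2% held CACCC and 42.6% held GGGCGG. Among the 6453 with a peak in all 8 libraries the shares were 56.3% and 70.5%. The ETS core CCGGAA, searched like the others on both strands, was in 0 of the 7, TTCCCGC was in 1 (Klf4), and TGANTCA was in 1 (Klf9). These 3 were in 15.0%, 4.96% and 6.13% of all promoters. A match describes the letters and does not show that a factor binds there.

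The starts of KLF genes were open at every time. A peak overlapped the 250 bases before the start in all 8 libraries for 6 of the 7 matched genes, Klf2, Klf3, Klf6, Klf7, Klf9 and Klf13, against 30.3% of all promoters. The exception was Klf4, with 7 libraries. These genes were listed with earlier results known, so the share may restate their choice. Their promoters had a median GC of 71.2%, against 55.6% for all promoters, and the part of GC was not tested. At Klf2, Klf3 and Klf9 the whole stretch was covered in every library. At Klf7 only 11 to 58 bases of it were covered, because the open region lay further upstream, with summits 336 to 402 bp before the listed start and inside the annotated gene, which extends beyond that start.

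All 10 genes had at least 1 region called in all 8 libraries whose strongest summit lay in the gene or within 1 kb of it. Of 21887 protein-coding genes, 38.8% had one, and so did 6 of 16 other KLF and SP genes. Since the 10 genes were listed with earlier results known, this may restate their choice, and nothing particular to them is read from it. Of the 44 regions, 19 (43.2%) had a peak in all 8 libraries, against 28.0% of all regions of the genome. A further 15 were called in 2 to 7 libraries and 10 in 1 library. Regions in a gene or within 1 kb numbered 22, of which 12 were called in all 8 libraries. The other 22 lay up to 50 kb away, of which 7 were called in all 8. Of those 7, 5 lay around Klf16, in a window with 7 other protein-coding genes, and without Klf16 the share in all 8 libraries was 13 of 37 (35.1%).

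**Figure D1:**
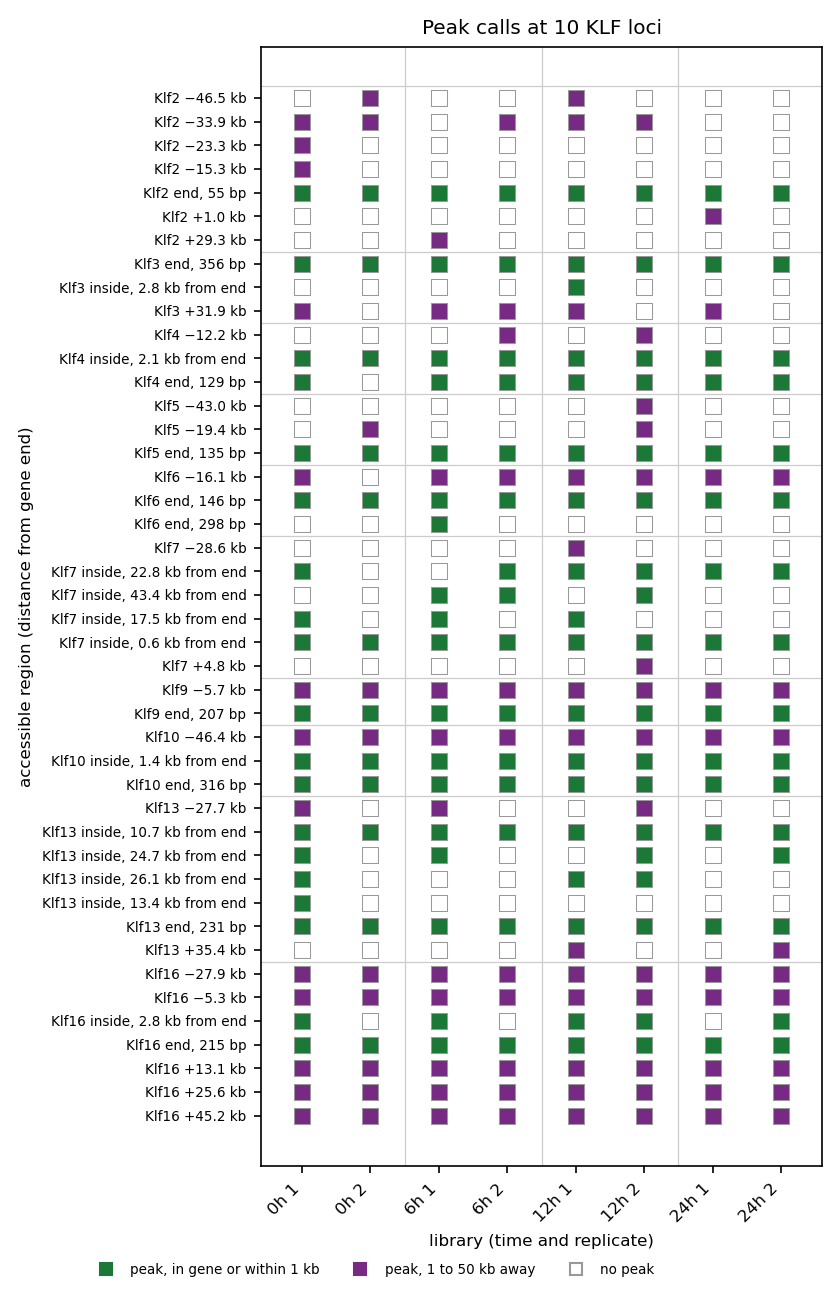
Peak calls in the 44 regions (rows) by library (columns, time and replicate). Filled squares are called peaks, green in the gene or within 1 kb and purple farther away; a minus sign means the side of lower coordinates. The 19 fully filled rows include at least 1 for every gene, and the second 0h library has a peak in 22 rows against 32 in the first.

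Few KLF regions changed against 0h. A region counted as gained when it was called in both libraries of a later time and in no library of 0h, and as lost in the reverse case. At 6h, 1 of 44 was gained (2.27%, against 1.85% of all regions) and 0 were lost (2.34% of all regions). At 12h, 0 were gained (4.03%) and 0 lost (1.45%). At 24h, 0 were gained (1.12%) and 1 was lost (2.27%, against 4.43%). With 2 libraries against 2 an exact permutation test cannot go below p = 0.33, so no test was made. The shares of the members were close to or below those of the genome. Single 0h libraries moved these counts, for the members and the genome alike, since the rule then asks for 1 library of 0h. Without the second 0h library 7 members were lost at 24h (15.9%, against 21.5%), 4 at 6h (9.09%, against 16.1%) and 3 at 12h (6.82%, against 12.4%). Without the first, 4 were gained at 6h (9.52%, against 8.40%), 5 at 12h (11.9%, against 13.7%) and 3 at 24h (7.14%, against 5.77%), and 3 were lost at 24h (7.14%, against 10.2%) and 2 at 6h (4.76%, against 6.94%). Without the first or second 12h library 5 and 3 were gained at 12h (11.6% and 6.98%, against 10.3% and 13.5%), and without the first or second 6h library 2 and 3 at 6h (4.76% and 6.82%, against 7.52% and 6.42%).

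Klf4 itself had 3 regions within 50 kb, and these are given apart because the construct shares the exons of the gene. The first, inside the gene (chromosome 4, 55530055 to 55530940), was called in all 8 libraries. Its summit lay 1989 to 2154 bp after the start site. Exon positions were not used here, and signal over exons cannot be assigned to the gene or to the construct. The pile-up at the summit, the number of tags stacked there, was 22 and 10 (0h), 20 and 20 (6h), 19 and 22 (12h) and 16 and 12 (24h). The low value at 0h is that of the second library, whose background was lowest, and the 24h values lie inside the range of 0h.

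The region at the Klf4 start (chromosome 4, 55532429 to 55533024) had all its summits upstream of the gene, by 30 to 307 bp. The start of Gm12506, a long non-coding RNA transcribed the other way, lies in the same region. The pile-up was 19 in the first 0h library, 14 and 14 (6h), 27 and 13 (12h) and 19 and 17 (24h). The second 0h library had no peak here. The median pile-up over all peaks was 10 in that list and 14 to 16 in the others, and the part of depth in the missing peak was not tested. Without the first 0h library, the region would count as gained at 6h, 12h and 24h, so that its call rests on that library. Fold enrichment, the summit pile-up over the local background, was 5.59 at 0h in the first library, 5.57 and 5.58 (6h), 8.51 and 4.61 (12h) and 7.38 and 7.28 (24h). The first 12h library was highest and the second lowest, so 12h spanned the values of every other time.

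The flanks of Klf4 held 1 region outside 1 kb, 12.2 kb beyond the 3' end (chromosome 4, 55514822 to 55515128). It was called in the second 6h library and the second 12h library, with a pile-up of 7 in each, while the lowest pile-up of any peak in these 2 lists was 5. No other protein-coding gene lies within 50 kb of Klf4. The total at the locus was 2 and 1 peaks (0h), 2 and 3 (6h), 2 and 3 (12h) and 2 and 2 (24h).

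**Figure D2:**
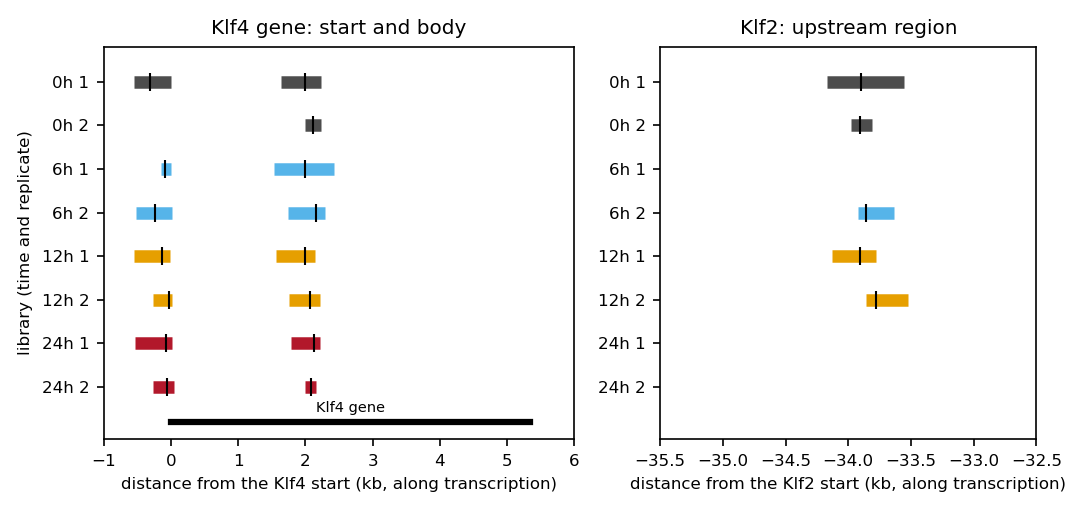
Peaks at the Klf4 start and body (left) and at the upstream region of Klf2 (right), by library, against distance from the start site in kb along transcription; bars span the peak and black ticks mark the summit. The body peak of Klf4 is present in all 8 libraries, the start peak in 7, and the Klf2 region in 5 with 0 at 24h.

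Klf2, an activator that keeps T cells quiescent and is induced by flow in endothelium, was open at its start in every library. The region there (chromosome 8, 72318698 to 72319425) had a pile-up of 50 and 34 (0h), 44 and 48 (6h), 55 and 37 (12h) and 37 and 29 (24h). Fold enrichment ran from 9.16 to 13.8. The ranges of 24h and 0h overlapped.

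The single lost region of the family lay 33.9 kb upstream of Klf2 (chromosome 8, 72284890 to 72285541). It overlaps the pseudogene Gm39197, and the nearest end of a protein-coding gene is that of Ap1m1, 27.8 kb away, which encodes a subunit of a clathrin adaptor. The pile-up was 14 and 8 at 0h, 7 in the second 6h library, and 14 and 8 at 12h. The first 6h library and both 24h libraries had no peak. Fold enrichment was 7.29 and 6.43 at 0h, 5.24 in the second 6h library, and 7.82 and 6.13 at 12h. The 12h values were thus like those of 0h, and the region had been called in 1 library at 6h. It counted as lost at 24h also with stricter peaks, lists of equal length and windows around summits. Leaving out a library could not undo the call, since the 0h peaks overlap each other and the rule then asks for no more. With stricter peaks and with lists of equal length it counted as lost at 6h too, because the 6h peak, with a −log10 q of 4.26, was removed. Assigned to the nearest gene end, it would not belong to Klf2.

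Endothelial and stromal markers with a peak numbered 5 and 2 of 8 (0h), 3 and 3 (6h), 4 and 3 (12h) and 0 and 1 (24h). The endothelial gene Cdh5 had a peak in 3 libraries, the first of 0h, the first of 6h and the first of 12h, while Kdr, Tek and Emcn had 0. Of the 6 B-cell genes, 3 and 3 (0h), 3 and 3 (6h), 3 and 4 (12h) and 2 and 1 (24h) had a peak, and of the 6 T and NK genes 4 in the first 0h library and 2 in each of the others. Pax5 of B cells and Lef1 of T cells had a peak in the 6 earlier libraries and 0 at 24h. Other genes of these lists were divided. Some also had earlier peaks and 0 at 24h, among them a gene of the endothelial and stromal list with a peak in all 6 earlier libraries. Others did not follow them. Cd79a and Cd3g had a peak in all 8 libraries, and Ebf1 in all but the second of 24h. Cd4 had a peak in the first 0h library and in both 24h libraries. Kit, of the leukaemia list, also had 0 at 24h. The part of these lists in the loss at Klf2 was not tested. The other 5 regions around Klf2 were called in 1 or 2 libraries. Those 23.3 and 15.3 kb upstream were called in the first 0h library alone, with pile-ups of 8 and 5. The flank region with the highest median percentile of fold within its lists lay 29.3 kb beyond the 3' end, inside Eps15l1, in the first 6h library with a pile-up of 13.

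Klf5, an activator tied to proliferation in epithelia, had an open region at the end of lower coordinates (chromosome 14, 99298266 to 99299310), called in all 8 libraries with folds of 10.97 to 16.1. The pile-up was 36 and 26 (0h), 30 and 25 (6h), 35 and 34 (12h) and 24 and 25 (24h). Both 24h values were below both 0h values, but the second 6h library was as low. A region 19.4 kb away was called in the second 0h and second 12h libraries, and one 43.0 kb away, 797 bp from an end of Pibf1, in the second 12h library.

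Klf6, a broadly expressed activator and candidate tumour suppressor, had a start region (chromosome 13, 5860803 to 5861567) with a pile-up of 59 and 18 (0h), 34 and 35 (6h), 43 and 39 (12h) and 35 and 50 (24h). The 2 libraries of 0h enclosed every other value. A region 16.1 kb upstream of Klf6 (chromosome 13, 5845229 to 5846022) was called in all libraries but the second 0h library. Its pile-up was 19 (0h), 12 and 7 (6h), 19 and 14 (12h) and 13 and 6 (24h). Like the Klf4 start, it would count as gained at all 3 later times without the first 0h library. Besides it, a peak 298 bp from the other end of Klf6 appeared in the first 6h library with a pile-up of 5.

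Klf7, an activator best known from neurons, is the longest of the 10 genes at 92898 bp and had 4 regions inside it. Its start region (chromosome 1, 64121582 to 64122359) was called in all 8 libraries with folds of 9.36 to 13.7. The single gained region of the family lay inside Klf7, 43.4 kb from its nearer end (chromosome 1, 64078575 to 64079056). It was called in both 6h libraries and the second 12h library, with pile-ups of 10, 7 and 8. The 2 peaks of 6h did not overlap each other: their summits lay 284 bp apart, and the 12h peak joined them. The region therefore did not count as gained without the second 12h library, nor with stricter peaks or lists of equal length.

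Another region inside Klf7, 22.8 kb from its nearer end (chromosome 1, 64051906 to 64052650), was called in more libraries. It was called in 6 libraries, with a pile-up of 7 in the first 0h library, 9 in the second 6h library, 9 and 12 at 12h, and 7 and 15 at 24h. The second 0h and first 6h libraries had no peak. This region joined separate peaks as well, with summits up to 429 bp apart. The 0h peak overlapped neither the 6h peak nor that of the first 24h library. The 0h peak had a −log10 q of 4.41. When peaks under 5 were removed the region counted as gained at 12h and 24h, and with lists of equal length at 24h. With all deposited peaks it did not count as gained. Outside the gene, a peak 28.6 kb beyond the 3' end was called in the first 12h library with a pile-up of 7.

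Klf3, the repressor that recruits CtBP, had a start region (chromosome 5, 64802846 to 64803783) called in all 8 libraries. Its pile-up was 52 and 15 (0h), 36 and 38 (6h), 37 and 41 (12h) and 31 and 37 (24h). A region 31.9 kb beyond its other end was called in 5 libraries with pile-ups of 7 to 19, namely the first 0h, both 6h, the first 12h and the first 24h library. A peak inside Klf3, 2.83 kb from its start, was called in the first 12h library with a pile-up of 24, the highest of the regions called once.

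Regions called everywhere were counted by the role of the protein, a grouping made after the values were seen. Over the genome, 28.0% of regions were called in all 8 libraries and 27.9% in 1 library. For Klf9, Klf10, Klf13 and Klf16 together, 13 of 19 regions (68.4%) were called in all 8 libraries, and 7 of 12 (58.3%) without Klf16. For the 5 activators it was 5 of 22 (22.7%), with 8 regions called in 1 library. For Klf3, the repressor that recruits CtBP, it was 1 of 3 (33.3%). The windows held, in this order, 3.81, 3.52 and 2.32 regions per 100 kb. The difference between these groups of genes was not tested.

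Klf9, which responds to glucocorticoid and thyroid hormone, had 2 regions, both called in all 8 libraries. One was at its start (chromosome 19, 23140657 to 23141774), with folds of 8.42 to 11.6. The other lay 5.68 kb upstream (chromosome 19, 23134878 to 23136110) inside the non-coding gene 2410080I02Rik, with folds of 7.4 to 9.28. No peak was called in the body of Klf9 apart from its start.

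Klf10, an early gene of the response to TGF-beta, had 3 regions, all called in all 8 libraries. Its end region (chromosome 15, 38300673 to 38301378) had pile-ups of 33 to 59 and its body region (38298995 to 38299758) of 32 to 55. The third lay 46.4 kb away (chromosome 15, 38244885 to 38245325), and the nearest protein-coding gene end was that of Odf1, a sperm tail gene, at 18.3 kb. Its pile-up was 20 and 7 (0h), 17 and 20 (6h), 24 and 25 (12h) and 18 and 25 (24h).

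Klf13, first described as a regulator of the chemokine gene RANTES in T cells, had 7 regions, 2 of them called in all 8 libraries. Its start region (chromosome 7, 63937305 to 63939702) was the widest of the 44 at 2398 bp, and held 2 separate peaks in 7 libraries and 1 wide peak in the first 0h library. The other stable region lay inside the gene, 10.7 kb from the nearer end (chromosome 7, 63896777 to 63897358), with pile-ups of 11 to 17. The body also held 3 regions called in 4, 3 and 1 libraries, at 24.7, 26.1 and 13.4 kb from the nearer end. The second 0h library had a peak in 0 of these 3, and the first had a peak in all of them. The strongest region outside the gene lay 27.7 kb beyond its 3' end and was called in the first 0h, first 6h and second 12h libraries with pile-ups of 8 to 10.

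Klf16, a repressor of GC-box promoters, had a region at its end (chromosome 10, 80576972 to 80579093) called in all 8 libraries and one inside the gene called in 5. The other 5 regions of its window were at or near other genes. They lay 58 bp from an end of Atp8b3, inside Rexo1, 33 bp from an end of Abhd17a, 60 bp from an end of Scamp4 and 218 bp from an end of Csnk1g2, and all were called in all 8 libraries. The region inside Rexo1 holds a listed start site of that gene. The Scamp4 region had the highest fold of the 44, at 10.9 to 17.4.

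**Figure D3:**
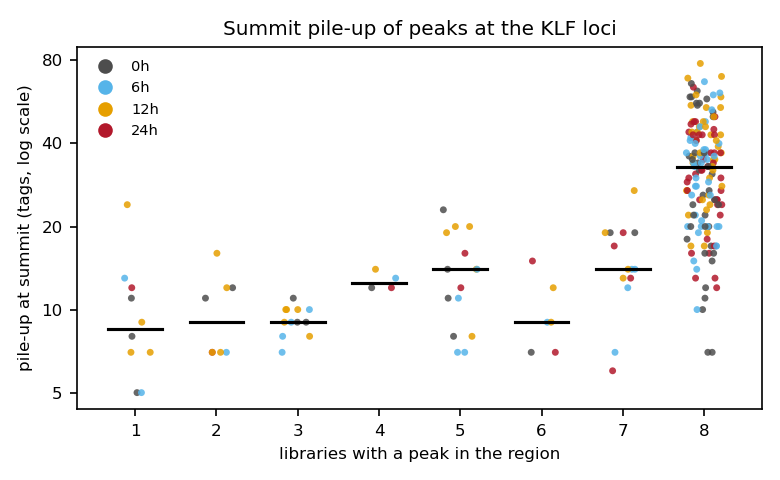
Summit pile-up in tags (log scale) of the peaks in the 44 regions, by the number of libraries with a peak in the region; each point is 1 peak, coloured by time, shifted sideways at random, and black bars are medians. Peaks of regions called in all 8 libraries have a median of 33, those of the other regions 11.

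Regions called in only some libraries had low pile-ups. The median pile-up was 33 over the 162 peaks of the KLF regions called in all 8 libraries, and 11 over the 69 peaks of the others. Over all regions of the genome the medians were 23 and 10. The lowest pile-up of any peak was 4 or 5 in each list, and the median over all peaks of a list was 10 to 16. Of the 15 KLF regions called in 2 to 7 libraries, 12 (80%) had no peak in the second 0h library, against 63.0% of the 14435 such regions of the genome.

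The KLF regions called in fewer than 8 libraries numbered 13 and 3 (0h), 10 and 7 (6h), 12 and 13 (12h) and 5 and 6 (24h). Of these 25 regions, 17 (68%) had a peak in neither 24h library, 6 (24%) in neither 12h library, 12 (48%) in neither 6h library and 10 (40%) in neither 0h library. Over the 23560 such regions of the genome the shares were 63.6%, 33.1%, 48.5% and 37.4%, so the low number at 24h was shared with the genome. Those with a peak in both 24h libraries were 3, the Klf4 start, the region upstream of Klf6 and the region inside Klf7 22.8 kb from its nearer end. The 24h lists were also the shortest of the series, with 15109 and 14826 peaks.

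Peaks at the loci numbered 32 and 23 (0h), 31 and 28 (6h), 32 and 34 (12h) and 25 and 26 (24h). The means were 27.5 ± 6.4, 29.5 ± 2.1, 33 ± 1.4 and 25.5 ± 0.71 (SD, n = 2). The difference between 24h and 0h was -2, smaller than the gap between the 0h libraries. Without the first 0h library it was 2.5, and without the second -6.5. As a share of the peak list, the loci made up 0.147% in each 0h library, 0.179% and 0.155% (6h), 0.146% and 0.172% (12h) and 0.165% and 0.175% (24h). Both 24h shares lay above both 0h shares, but so did those of 6h, and the 12h libraries lay on either side.

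**Figure D4:**
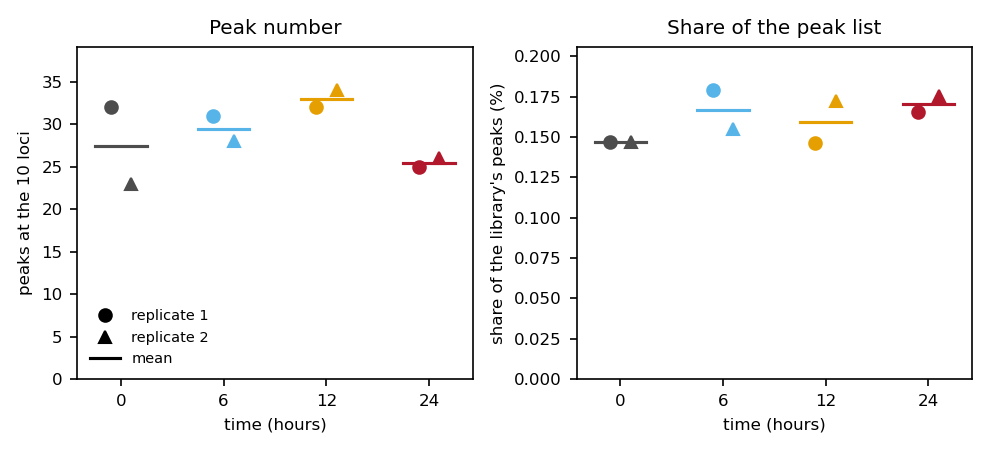
Number of peaks at the 10 loci (left) and their share of all peaks of the library in percent (right) by time in hours; points are libraries, shapes are replicates and lines are means of 2 libraries. The 0h libraries have 32 and 23 peaks, and the same share of 0.147%.

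To follow the 19 regions called everywhere, their fold enrichment was ranked among the 9170 regions of the genome with a peak in all 8 libraries, as a percentile in each library. This describes the order within 1 fixed set and no common scale of signal. The highest medians were those of the Scamp4 and Abhd17a ends in the Klf16 window, at 87.6 and 87.4, and among starts and ends of KLF genes those of Klf5 at 72.7, Klf6 at 71.6 and Klf2 at 70.5. The lowest were the Klf10 body region at 8.11 and the Klf4 body region at 8.36. The Klf2, Klf5 and Klf6 ranges overlapped widely, so their order does not stand out from the spread.

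At 24h, both percentiles lay above both 0h percentiles for 2 of 19 regions (10.5%, against 17.0% of the 9170) and below them for 3 (15.8%, against 16.4%). At 12h it was 2 above (10.5%, against 15.9%) and 5 below (26.3%, against 16.9%), and at 6h 1 above (5.26%, against 16.3%) and 2 below (10.5%, against 15.7%). All but the 5 lower at 12h were below the share of the genome. The 24h counts rose when a 0h or 24h library was left out, for the members and the genome alike, since the rule then compares 1 library with 2. Without the second 0h library 8 of 21 regions were higher (38.1%, against 36.0%) and 5 lower (23.8%, against 33.2%). Without the first, 5 of 20 were higher (35.4% of the genome's regions were) and 13 lower (65.0%, against 36.7%). Without the first 24h library 4 of 19 were higher (21.1%, against 31.4%) and 7 lower (36.8%, against 30.8%), and without the second 4 were higher (21.1%, against 31.7%). The 5 regions lower at 12h were the starts of Klf3, Klf7 and Klf9, the upstream region of Klf9 and the body region of Klf10.

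The region 46.4 kb from Klf10 was the 1 region above 0h at all 3 later times. At single times 16.3% (6h), 15.9% (12h) and 17.0% (24h) of the 9170 regions were above 0h. The share above 0h at all 3 times was not counted, and the 3 comparisons use the same 0h libraries. The percentile of the Klf10 region was 24.1 and 7.43 (0h), 42.4 and 44.1 (6h), 40.4 and 62.2 (12h) and 50.2 and 75.3 (24h). The lowest value came from the second 0h library, and the first was below all 6 later libraries too. The Klf13 body region was the other one higher at 24h, at 22.6 and 41.8 at 0h and 49.0 and 45.5 at 24h, while its 6h and 12h values overlapped those of 0h.

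The Klf3 start was below 0h at 12h and 24h. Its percentile was 54.7 and 37.6 (0h), 47.1 and 42.1 (6h), 10.2 and 24.6 (12h) and 33.7 and 36.3 (24h). The gap between the higher 24h value and the lower 0h value was small against the gap between the 0h libraries. The Klf5 end and the Klf9 start were lower at 24h too, with 73.1 and 98.5 at 0h against 61.5 and 65.9 for Klf5, and 48.4 and 59.7 against 37.3 and 40.01 for Klf9. The Klf4 body region stayed low in rank at every time, from 1.93 to 17.7.

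**Figure D5:**
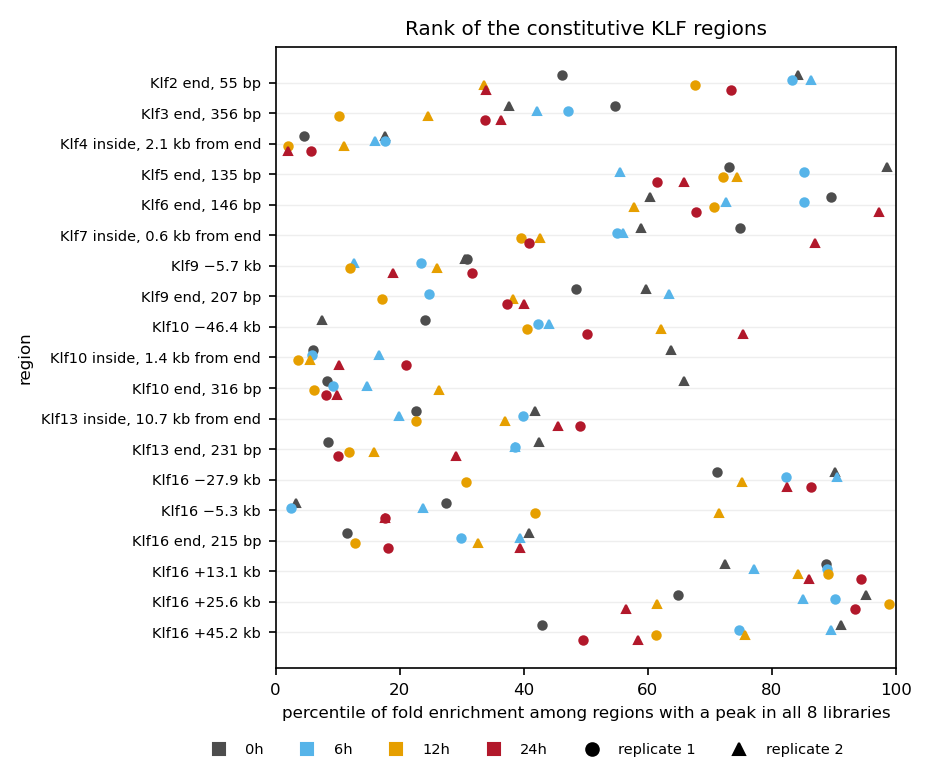
Percentile of fold enrichment of the 19 KLF regions with a peak in all 8 libraries, among the 9170 such regions; colours are times and shapes are replicates. For most regions the points of the 4 times overlap, and in the row 46.4 kb from Klf10 the 6 later points lie between 40.4 and 75.3, right of both 0h points.

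The rest of the family, Klf1, Klf8, Klf11, Klf12, Klf14, Klf15, Klf17 and Sp1 to Sp9, are 16 genes. They had 60 regions within 50 kb, counted per gene, with 20 of them called in all 8 libraries (33.3%, against 28.0% of all regions). The windows of Sp1 and Sp7 overlap, as do those of Sp2 and Sp6, so a region there can count for both genes. The share of all regions counts each region once. Klf14 and Sp8 had 0 regions. Klf1, Klf11, Sp1, Sp2, Sp3 and Sp4 had a region called in all 8 libraries in the gene or within 1 kb. At 6h 2 of the 60 were gained, against 1.85% of all regions. Both lay in the window of Klf11, a Sin3A-recruiting relative of Klf10, at 17.4 and 34.5 kb from it. Ends of Grhl1 and Rrm2 lay nearer to them, at 16543 and 10925 bp. At 12h 1 region was gained inside Sp2, in the window of Sp6 as well. It counts for both genes, which makes 2 of 60, against 4.03% of all regions. At 24h 0 were gained (1.12% of all regions). At 6h, 12h and 24h 0 were lost (2.34%, 1.45% and 4.43% of all regions). The Klf11 region at 34.5 kb had folds of 7.15 and 5.58 at 6h, and had a peak in the first 12h and second 24h library.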

How the data were processed

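ATAC-seq peak lists of 8 libraries were used. BWA, SAMtools and MACS2 on mm10 made them, per the submitters' processing notes; the sources used here give no version, setting, read shift or treatment of duplicates. The authors deposited 1 list per library, so peaks were not called on pooled samples. Each peak has, as deposited, a fold enrichment (a linear ratio of summit pile-up to local background, with 1 added to each), a −log10 p-value and a −log10 q-value, lowest 2.00. The integer score deposited by the authors was not used. These per-peak values are the authors', and served to describe and rank peaks within a list.

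Pile-ups were solved from fold and −log10 p, within 0.001, for 99.8% to 99.9% of peaks of each list. Overlapping peaks (1 bp or more) on 19 autosomes, X and Y were joined as regions, and the strongest summit placed each region. Background in tags per kb is the lowest local background over the smallest peak width. Gene positions and promoters came from RefSeq tables (GRCm38.p6) without exons. Named regions were the strongest at and outside each gene, all changed regions, and every region of Klf4; other regions were named, and genes grouped by role, after their values were seen. Region merging, calls and pile-up solving were tested on simulated data. Alternatives were equal list lengths, only peaks with −log10 q from 5 up, windows of 10 and 100 kb, 250 bp around summits, nearest gene ends, ranks by −log10 p, a replicate block and each library left out. The members and lists were chosen with earlier results of these data known. Single values of some listed markers are not reported here. Python 3.11.15, pandas 2.3.3 and scipy 1.17.1 were used.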

Additional observations from a re-analysis of the deposited data

How the results depend on the processing

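Under every alternative run, the number of regions called in all 8 libraries stayed within 1.5 times of 19, and the Klf4 locus within 1.5 times of 17 peaks. The difference in mean peaks between 24h and 0h (-2) moved by less than 6.4, the SD of a difference between single libraries of these times. Leaving out a 0h or 24h library moves a mean by less than this SD whatever the values, so the bound is no check there. The sign of the difference in mean peaks turned with lists of equal length (2), within 10 kb (0.5) and without the first 0h library (2.5), and it was -6.5 without the second. Counts of gained and lost regions are 0 or 1 and each moved with at least 1 setting, the regions gained at 6h with the most settings. With a −log10 q of at least 5, 0 of 39 regions were gained at 6h (1.79% of all regions) and 1 was lost (2.56%, against 2.18%). In that setting 1 was gained at 12h (2.56%, against 4.79%) and 1 at 24h (2.56%, against 1.29%). Of its regions called in all libraries, 5 of 18 ranked lower at 24h (27.8%, against 16.2%). With lists of equal length, 0 of 37 were gained at 6h (2.37% of all regions) and 1 was lost (2.70%, against 2.36%). At 24h 1 was gained with these lists (2.70%, against 2.92%). Within 100 kb, 2 were gained at 6h, 2 at 12h, and 4 ranked higher at 24h; within 10 kb, 0 were lost at 24h and 1 ranked higher. With windows around summits, 2 of 46 were gained at 6h (4.35%, against 1.94%). With nearest gene ends, 0 were lost and 1 ranked higher at 24h, and by −log10 p 1 ranked higher (5.26%, against 17.8%). The windows of 10 and 100 kb and the nearest gene ends change the members alone, so the shares of all regions stay as in the main setting. The causes were not tested, except that the window and the gene assignment leave out the Klf2 region by construction. Leaving out 1 library gave 0 to 4 gained and 0 to 4 lost at 6h, 0 to 5 gained and 0 to 3 lost at 12h, and 0 to 3 gained and 1 to 7 lost at 24h. Of the regions called in all libraries kept, 2 to 8 ranked higher and 3 to 13 lower at 24h. The count of lost regions at 24h was 7 without the second 0h library and 3 without the first. Those ranked higher were 8 without the second 0h library, and those ranked lower 13 without the first and 7 without the first 24h library. With the replicate number as a block (replicate block), 1 region was gained at 6h and 1 lost at 24h, as in the unpaired calls, since both rules ask the same of the 4 libraries. Same-numbered libraries did not deviate together over the 9170 regions, with correlations of -0.0353 to 0.00808 over 6 pairs of times. The Klf7 region was not gained in 3 settings, 2 of them stricter lists (0 in each) and the other without the second 12h library. What depth limits in each library was not tested; background was lowest in the second 0h library and lists were shortest at 24h.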
